A study of Mus musculus with 36 samples.

Results

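Receptors for glutamate and for GABA set the balance of excitation and inhibition in the brain, and the 34 genes described here encode 24 glutamate receptor subunits and 10 subunits of the GABA-A receptor. They were taken by symbol from a list, out of 56980 gene rows in the count table. That list was drawn up with earlier results of these data known. The list holds 4 AMPA, 5 kainate and 7 NMDA receptor genes, the delta receptor gene Grid1, 7 metabotropic genes and, for GABA-A, 5 alpha, 2 beta and 2 gamma genes and Gabrd. A filter on low counts passed 33 of them. Grm6, a metabotropic receptor known from retinal bipolar cells, did not pass: it had 18 reads in all over 36 libraries and 0 in 30 of them.

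AMPA, kainate and NMDA receptors are ion channels that open when glutamate binds, and AMPA receptors carry most fast excitatory current. Gria2 encodes the subunit that, after RNA editing, makes AMPA receptors nearly impermeable to calcium. Metabotropic glutamate receptors act through G proteins: group I is mainly postsynaptic, and groups II and III dampen transmitter release. GABA-A receptors are chloride channels, in which the alpha subunit sets much of the pharmacology and the place in the cell.

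The samples were brains of mice aged 37 to 45 days, either with a knockout of Ndufs4 (KO), a gene for an accessory subunit of respiratory complex I, or wild type (WT). Each mouse received CP2, a small molecule that inhibits complex I, or vehicle by gavage on 3 days. Genotype, treatment and the letter F or M in the sample title gave 8 groups: KO CP2 F, KO vehicle F, WT CP2 F, WT vehicle F, KO CP2 M and WT CP2 M with 5 samples each, and KO vehicle M and WT vehicle M with 3 each. The labels name no strain, allele or vehicle, and the tissue label is brain, while hippocampus and cortex are named in the design text. The design asks what the knockout changes, what CP2 changes in either genotype, and whether CP2 acts differently in the 2 genotypes.

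Gene counts per library ran from 4.61e+07 to 8.86e+07. Ndufs4 was detected in every sample and was lower in KO than in WT in all 4 comparisons within a letter and treatment, at 28.2 ± 1.19 CPM (counts per 1e+06 counts; SD, n = 3) in KO vehicle M as the lowest group mean and 53.4 ± 5.51 CPM for WT vehicle F as the highest (SD, n = 5). In vehicle M that call was lost without L285 or L300 (adjusted p 0.051 and 0.060). The labels do not say that each sample came from a separate mouse, so p-values measure the spread between these samples. Markers of hippocampal CA neurons (summed level 645 to 1078 CPM) and of cortical projection neurons (742 to 1416 CPM) were present in every library, as were markers of striatum (276.5 to 1337 CPM) and thalamus (164 to 644 CPM). The share of reads placed outside genes (the outside-gene share) was 5.18% to 9.06% in KO CP2 M, and 11.3% to 13.0% in KO vehicle M and 9.05% to 13.2% in WT CP2 M. Xist was at 439 to 798 CPM in the F libraries and at most 0.833 CPM in 15 of the M libraries, but at 47.3 CPM in L291 of KO CP2 M, which is one of the libraries left out in turn below. Libraries L201 and L233 (KO CP2 F) and L278 (WT vehicle F) carried genes of the cerebellum, with Cbln3 at 178, 16.3 and 9.04 CPM against at most 1.56 CPM in the other 33, and results are given with and without these 3 where they differ.

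Levels per length of exon spanned a wide range. Lengths were those of all annotated exons merged, and the order depends on them. Before division by length, Gria2 (15.5 kb) had a median of 449 CPM and Gria1 (6.04 kb) one of 415 CPM. Gria1 was highest, with a median of 68.6 CPM per kb over the 36 samples, followed by the kainate gene Grik5 (44.9 CPM per kb), the obligatory NMDA subunit gene Grin1 (40.3 CPM per kb), Gabra3 (30.96 CPM per kb) and Gria2 (28.9 CPM per kb). Grin2b, at 23.0 CPM per kb, exceeded Grin2a at 8.51 CPM per kb, and their ranges over samples (17.6 to 31.7 and 5.88 to 11.3 CPM per kb) did not overlap. Among the alpha genes of the GABA-A receptor, Gabra3 was followed by Gabra5 (22.8 CPM per kb), Gabra4 (17.8 CPM per kb) and Gabra2 (7.24 CPM per kb). Many neighbours in this order overlapped: Grm5, Gria3, Gabra4 and Grm3 had medians from 17.4 to 18.8 CPM per kb. At the low end, Grin3b was at 0.151 CPM per kb, and Gabra6 had 0 reads in 18 libraries. Exons of another gene covered 32.1% of the exon bases of Grin3b, 13.5% of those of Grin1, 11.05% of those of Grm6, 9.66% of those of Grin2d and 9.60% of those of Grm2. The strand setting of the counting is not given in the sources used here. It is thus not known whether reads in these overlaps went to the receptor gene, to the other gene or were set aside as ambiguous.

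**Figure D1:**
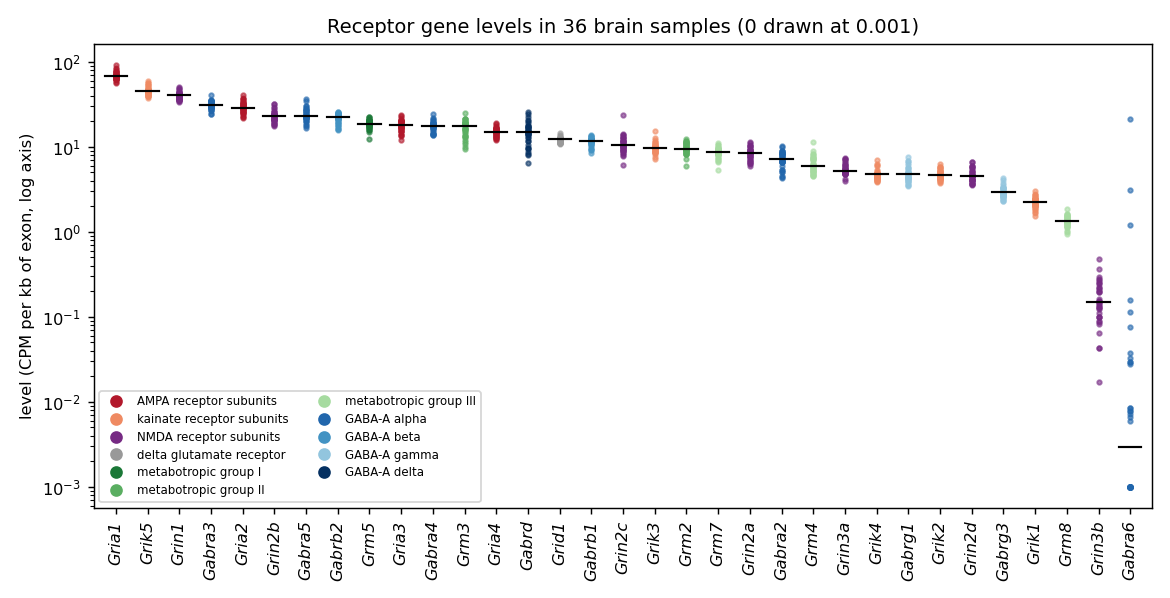
Level of 33 receptor genes in each of the 36 brain samples (points, CPM per kb of merged exon, log axis), with the median as a bar and colours for receptor class; values of 0 are drawn at 0.001 and Grm6 is left out. Gria1 is highest with a median of 68.6 CPM per kb, and the points of Gabra6 range from 0 to 20.99 CPM per kb.

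Sequence upstream of the start site is shown for the 4 genes called lower in KO brains under CP2 (mean of F and M) that had an entry in the RefSeq promoter table (GRCm38.p6), with Gabra6, whose signal followed the cerebellar libraries, for contrast. Each line gives the 250 bases before the start site, 5′ to 3′ on the gene's strand, with every CG dinucleotide in capitals. All of them lie on the minus strand.
Gabra2 (ENSMUSG00000000560), chr5:71095850-71096099: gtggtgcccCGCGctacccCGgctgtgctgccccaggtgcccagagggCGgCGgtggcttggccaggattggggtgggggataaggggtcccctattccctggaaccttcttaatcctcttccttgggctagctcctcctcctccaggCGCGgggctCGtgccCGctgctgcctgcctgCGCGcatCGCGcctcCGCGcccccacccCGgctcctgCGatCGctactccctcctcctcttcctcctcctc
Gria2 (ENSMUSG00000033981), chr3:80802836-80803085: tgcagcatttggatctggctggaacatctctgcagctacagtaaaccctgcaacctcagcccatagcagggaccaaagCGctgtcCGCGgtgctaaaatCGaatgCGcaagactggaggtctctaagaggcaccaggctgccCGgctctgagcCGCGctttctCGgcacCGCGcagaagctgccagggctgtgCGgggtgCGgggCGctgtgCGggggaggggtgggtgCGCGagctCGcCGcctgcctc
Grm2 (ENSMUSG00000023192), chr9:106656110-106656359: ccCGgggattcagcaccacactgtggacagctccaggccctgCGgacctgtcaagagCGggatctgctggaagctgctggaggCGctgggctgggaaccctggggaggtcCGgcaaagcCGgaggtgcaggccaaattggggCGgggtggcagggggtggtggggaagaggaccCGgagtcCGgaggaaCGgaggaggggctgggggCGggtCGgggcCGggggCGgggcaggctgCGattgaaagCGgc
Grm3 (ENSMUSG00000003974), chr5:9725353-9725602: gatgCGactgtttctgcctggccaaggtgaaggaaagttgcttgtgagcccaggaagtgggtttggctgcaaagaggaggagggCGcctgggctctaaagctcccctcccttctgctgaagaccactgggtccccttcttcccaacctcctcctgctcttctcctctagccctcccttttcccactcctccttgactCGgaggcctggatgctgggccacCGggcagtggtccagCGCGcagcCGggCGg
Gabra6 (ENSMUSG00000020428), chr11:42321073-42321322: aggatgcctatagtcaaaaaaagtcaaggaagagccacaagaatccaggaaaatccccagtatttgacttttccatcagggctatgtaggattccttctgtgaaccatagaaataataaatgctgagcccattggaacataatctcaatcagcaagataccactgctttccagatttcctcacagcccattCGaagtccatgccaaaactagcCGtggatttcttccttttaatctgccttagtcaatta
The number of CG dinucleotides was 18 for Gabra2, 19 for Gria2, 16 for Grm2 and 8 for Grm3, and 2 for Gabra6, against a median of 6 over the 32851 windows of this length in the table. The GC box GGGCGG, searched on both strands, was present 3 times in the Grm2 window and 1 time each in those of Gabra2 and Grm3, and was in neither the Gria2 nor the Gabra6 window. It was found in 32.7% of all windows.

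Lower levels in KO made up nearly all calls among these genes. Calls were made at an adjusted p under 0.05 with edgeR's quasi-likelihood test with Benjamini-Hochberg adjustment over 25601 genes, and the mean of the F and M effects is meant where no letter is given. With vehicle, 3 of 33 receptor genes were called, all lower in KO (Gabra2, Grm3 and Grm4), where 6.67% of all tested genes were called, and 3.8% were called lower. With CP2, 7 of 33 were called, 6 lower (Gabra2, Gria2, Grm2, Gria3, Grm3 and Grm5) and Gabra6 higher, against 11.6% of all genes, with 6.07% lower and 5.54% higher. The median log2 fold change of the 33 was -0.02 with vehicle and -0.10 with CP2, beside 0.02 and 0.01 over all tested genes. The DESeq2 Wald test called 4 with vehicle, Gabrd among them, and the same 7 with CP2. In these bulk samples, fewer cells of a type and less RNA per cell cannot be told apart.

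**Figure D2:**
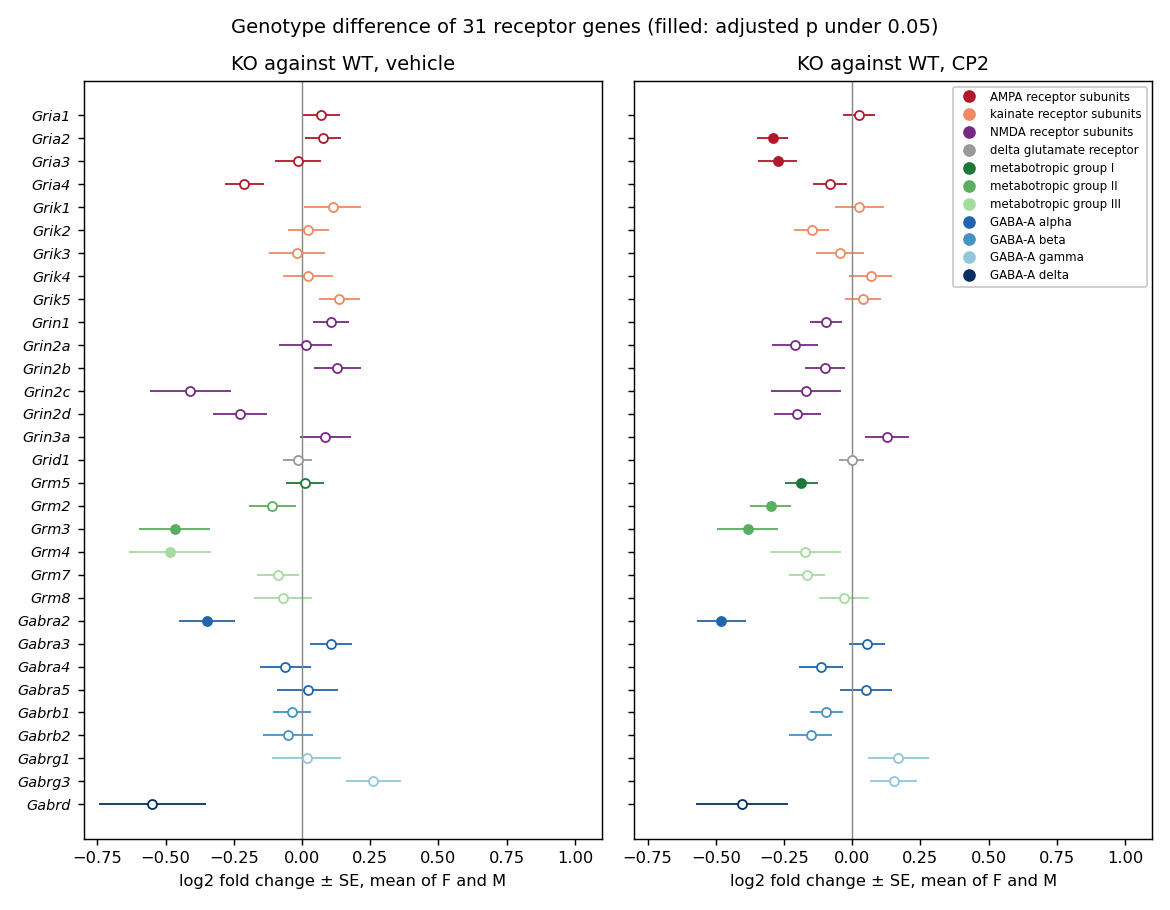
Log2 fold change of KO against WT (points, with the standard error as a bar) for 31 receptor genes with vehicle (left) and with CP2 (right), as the mean of the F and M effects; filled points have an adjusted p under 0.05 and colours give the class. Gabra6 and Grin3b, with the fewest reads among the tested genes, are left out, and Gabra2, at -0.35 and -0.48, and Grm3, at -0.47 and -0.38, are filled on both sides.

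For CP2 in KO mice 0 of the 33 genes were called on average by edgeR's test, where 3.91% of all genes were called. Of the 33, 6 had an unadjusted p under 0.05, beside 4641 of all 25601 genes, and the DESeq2 Wald test called 1, Gria2. In M alone 3 genes fell (Gria2, Grik2 and Grin1), against 5.1% of all genes called and 2.74% called lower. In F alone edgeR and DESeq2 each called 0 of 33, and edgeR called 0.0859% of all genes. At an unadjusted edgeR p under 0.05 there were 11 of the 33 in F, beside 2827 of all 25601 genes. In WT mice 0 of 33 genes were called for CP2 on average or in either letter, with 5 at an unadjusted p under 0.05 on average, 1 in F and 4 in M, and 0 by DESeq2. Of all 25601 genes 0% were called by edgeR in these, with 1031 at an unadjusted p under 0.05 on average, 679 in F and 777 in M.

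Glial markers moved with comparisons of KO CP2, in M and in the mean of F and M. For CP2 against vehicle in KO M, 1 of 7 oligodendrocyte markers and 3 of 7 microglial markers were higher by edgeR and 0 lower (medians 0.49 and 0.36 on the log2 scale), and DESeq2 called 4 of each list. Of 7 astrocyte markers 2 were higher there (median 0.27), beside 5.1% of all genes called. In the mean of F and M, 4 of 7 oligodendrocyte and 4 of 7 microglial markers were higher (medians 0.39 and 0.30), beside 3.91%. In F alone 0 of either list were called (medians 0.31 and 0.22), beside 0.0859%. For KO against WT with CP2 in M, 1 of 7 oligodendrocyte and 5 of 7 microglial markers were higher (medians 0.28 and 0.39). Of 7 astrocyte markers 2 were higher there (median 0.33), beside 9.99% of all genes called. In F alone 0 markers of these lists were called in that comparison, beside 2% of all genes. The summed level of the microglial list was 355 to 466 CPM in KO CP2 M, 309 to 371 CPM in KO vehicle M and 280.0 to 351 CPM in WT CP2 M. That of the oligodendrocyte list was 8460 to 15690 CPM in KO CP2 M, 8091 to 9529 CPM in KO vehicle M and 8924 to 11530 CPM in WT CP2 M. No marker of these glial lists was at 0 in every library, and their part in the receptor results was not tested.

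Of the 4 AMPA receptor genes, Gria2 and Gria3 (GluA2 and GluA3) were lower in KO under CP2, whereas Gria1 had a log2 fold change of 0.02 ± 0.06 (SE) and Gria4 one of -0.08 ± 0.06 (SE), neither called. With vehicle 0 of the 4 was called: values ran from -0.21 to 0.08. Without the 3 cerebellar libraries Gria4 was called lower in KO, at -0.18 ± 0.05 with CP2 (edgeR adjusted p = 0.022) and -0.22 ± 0.06 with vehicle (adjusted p = 0.020). Differences between the AMPA genes were not tested.

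In M, Gria2 stood at 395, 453 and 502 CPM in WT vehicle and at 518, 570.4 and 632 CPM in KO vehicle. After CP2 it was at 481, 492, 531, 563 and 588 CPM in WT and at 361, 393, 404, 429 and 439 CPM in KO. The KO samples lay above all WT samples with vehicle and below all WT samples with CP2, without overlap in either case. Under CP2 the KO difference was -0.39 ± 0.08 (log2, SE) with an edgeR adjusted p of 0.0012, and with vehicle it was 0.35 ± 0.10 with an adjusted p of 0.11. In the vehicle comparison edgeR's fit of all samples called 0 of 33 receptor genes and 0.516% of all genes. At an unadjusted p under 0.05 were 9 of the 33, beside 3132 of all 25601 genes. DESeq2 called 2 there, Gria2 and Grin2b, both higher in KO, beside 2.22% of all genes. A fit on the M samples alone called 3 of 32, Gria2 among them, beside 3.29%. Within KO, CP2 against vehicle gave -0.50 ± 0.09 (edgeR adjusted p = 0.00093). Both comparisons called by edgeR's fit of all samples use the KO CP2 M samples. In a fit that added the outside-gene share as a covariate, the adjusted p rose above 0.05 for both called differences of M, at log2 fold changes of -0.30 (KO against WT, adjusted p = 0.079) and -0.40 (CP2 in KO, adjusted p = 0.23). That share differed between these groups, as given above. With it as covariate 1 receptor gene was called in KO against WT under CP2 in M, Grm3, and 0 in CP2 against vehicle in KO M, where 3.37% and 0% of all genes were called.

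In F, Gria2 was at 411, 435, 446, 471 and 480.5 CPM in WT vehicle and at 343, 348, 411, 417 and 441 CPM in KO vehicle. With CP2 it was at 456, 467, 491, 516 and 521 CPM in WT and at 378, 389.5, 429, 444 and 501 CPM in KO. KO samples tended to the low side in both, and the groups overlapped. CP2 had an effect of 0.13 ± 0.08 (log2, SE) in KO F, not called. The difference between the CP2 effects in KO of F and M was 0.63 ± 0.12 on the log2 scale (edgeR adjusted p = 0.015), where 0.691% of all genes were called and 0.348% in the positive direction, and Gria2 was the only one of 33 receptor genes called in that test by edgeR. Without L322 (KO vehicle M) it was 0.55 with an adjusted p of 0.096, and with the outside-gene share as covariate 0.56 with an adjusted p of 0.068. The DESeq2 Wald test called 6 receptor genes there, 5 in the positive direction and Grin3a in the negative, beside 2.75% of all genes.

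Across both letters, Gria2 was the only receptor gene with a called interaction of genotype and CP2, -0.37 ± 0.09 (log2, SE; edgeR adjusted p = 0.034), where 0.715% of all genes were called and 0.398% in the negative direction. CP2 went with a log2 difference of 0.18 ± 0.06 in WT and of -0.19 ± 0.06 in KO, and neither of these passed the test alone. Leaving out any one of 9 libraries (L240, L262, L263, L281, L285, L299, L300, L319 or L322) ended the interaction call, with adjusted p from 0.051 to 0.11, as did the outside-gene share as covariate (-0.29, adjusted p = 0.54). The KO difference under CP2, -0.29 ± 0.06 (adjusted p = 0.0005), was called in each of 20 fits that left out 1 library. Without the 3 cerebellar libraries it was -0.33, and CP2 in KO then also lowered Gria2 on average, with a log2 fold change of -0.23 ± 0.06 (edgeR adjusted p = 0.024).

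**Figure D3:**
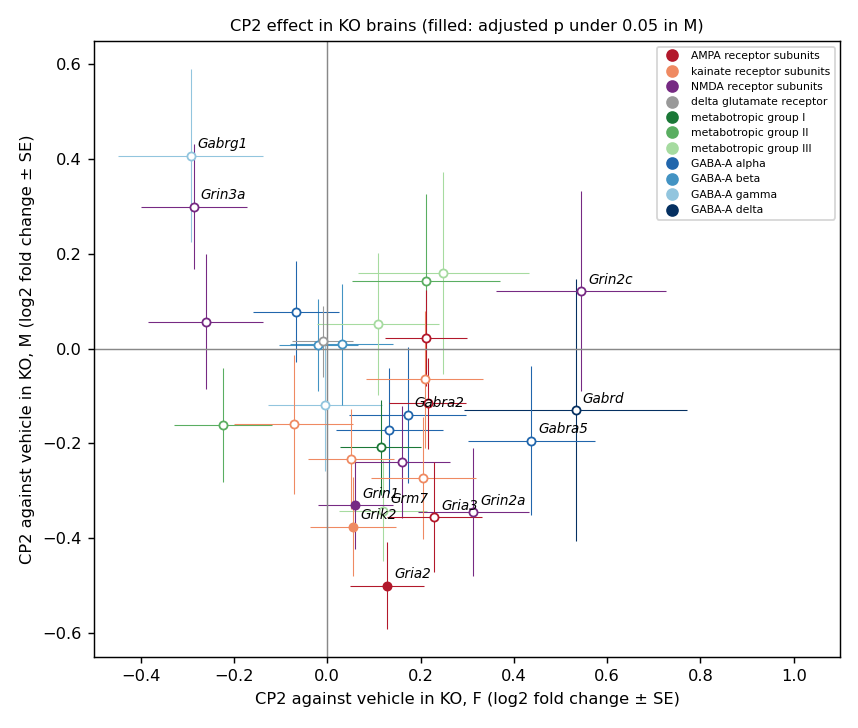
Effect of CP2 against vehicle in KO brains for 31 receptor genes, in F (horizontal) and M (vertical), as log2 fold change with standard errors; filled points have an adjusted p under 0.05 in M and colours give the class. Gria2 is at 0.13 in F and -0.50 in M, and Grin1 and Grik2 are the other filled points.

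Gria3, an X-linked gene, had levels under CP2 of 187, 194, 199.5, 200.1 and 226.8 CPM in WT F and of 137, 162, 164, 197 and 202 CPM in KO F. In M it was at 166, 193, 199, 204 and 215 CPM in WT CP2 and at 132, 149, 153, 171 and 177 CPM in KO CP2. The KO values were mostly lower, with overlap in both letters. The KO difference was -0.27 ± 0.07 (log2, SE; edgeR adjusted p = 0.010) and was called in each of the 20 fits with 1 library left out. Of the separate comparisons only that in M was called, at -0.32 ± 0.10 (adjusted p = 0.039), and it was lost without any one of L262, L263, L267, L289, L291, L292 or L299 (adjusted p 0.052 to 0.13). With vehicle, KO M held 168, 198 and 234.2 CPM against 151, 162 and 187 CPM in WT M, and KO F held 119.9 to 181 CPM against 170.1 to 199.6 CPM in WT F.

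As a share of the 4 AMPA genes per length of exon, Gria2 made up 25.6 ± 0.672% (SD, n = 3) in KO vehicle M and 21.2 ± 0.485% (SD, n = 5) in KO CP2 M, with ranges of 24.9% to 26.3% and 20.6% to 21.7%. In F the corresponding shares were 21.01 ± 1.65% (SD, n = 5) and 20.1 ± 1.77% (SD, n = 5). WT groups ranged from 21.7% in vehicle F to 24.3% in CP2 M. These shares describe the same counts as the tests above, depend on the merged exon lengths and were not tested.

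Of the 5 kainate receptor genes, Grik2, which encodes GluK2, was called in 2 comparisons, both in M. KO CP2 M had 50.2, 52.8, 57.7, 57.7 and 61.5 CPM, KO vehicle M 66.7, 69.0 and 82.2 CPM, and WT CP2 M 60.5, 68.0, 70.1, 73.5 and 73.8 CPM. KO CP2 M lay below all KO vehicle M samples, and its highest sample lay above the lowest of WT CP2 M. Against KO vehicle M the difference was -0.38 ± 0.11 (log2, SE; edgeR adjusted p = 0.028) and against WT CP2 M it was -0.30 ± 0.09 (adjusted p = 0.027). The first was lost without L292, L299, L319 or L322 (adjusted p 0.054 to 0.32) and the second without L262, L263, L289, L292 or L299 (0.065 to 0.092). With the outside-gene share as covariate the differences were -0.05 (adjusted p = 0.93) and -0.02 (adjusted p = 0.94). With a score of hippocampal CA markers (the mean log2 CPM of the list) as covariate they were -0.34 (adjusted p = 0.060) and -0.27 (adjusted p = 0.062). That score was 4.07 to 4.23 in KO CP2 M, 4.35 to 4.52 in KO vehicle M and 4.231 to 4.503 in WT CP2 M. Neither edgeR's fit of all samples nor DESeq2 called Grik1, Grik3, Grik4 or Grik5 in any comparison.

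Of the NMDA receptor genes, Grin1 was at 324, 344, 349, 352 and 405 CPM in KO CP2 M and at 424, 429 and 484 CPM in KO vehicle M. These groups did not overlap, and the difference was -0.33 ± 0.09 (log2, SE; edgeR adjusted p = 0.027). The call was lost without L266, L291, L292, L299, L319 or L322 (adjusted p 0.053 to 0.25). Grin2a, whose subunit becomes more common in NMDA receptors as the forebrain matures, was at 119, 125, 134, 139.8 and 151 CPM in KO CP2 M and at 138, 159, 182, 184 and 202 CPM in WT CP2 M. The groups overlapped in the range of 138 to 151 CPM, and the difference was -0.37 ± 0.12 (log2, SE; edgeR adjusted p = 0.040). It was lost without L262, L263, L266, L289, L291, L292 or L299 (adjusted p 0.056 to 0.13).

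Grin2b was not called in any comparison by edgeR's fit of all samples, while DESeq2 called it higher in KO vehicle M than in WT vehicle M. The share of Grin2a in the sum of Grin2a and Grin2b per length was between 24.1 ± 2.26% (SD, n = 5) in KO CP2 M and 28.3 ± 2.76% (SD, n = 5) in KO CP2 F. Grin2c, found in cerebellar granule cells, thalamus and astrocytes, was at 121 CPM in the cerebellar library L201 and at 46.1 to 54.4 CPM in the other KO CP2 F samples. With all libraries its KO differences were -0.41 ± 0.15 with vehicle and -0.17 ± 0.13 with CP2, not called. Without the 3 cerebellar libraries they were -0.40 ± 0.09 (edgeR adjusted p = 0.0051) and -0.34 ± 0.08 (adjusted p = 0.0049). The M groups hold none of these libraries, and under CP2 in M Grin2c was at 42.4 to 51.2 CPM in KO. WT CP2 M was at 64.5 to 70.0 CPM, without overlap, whereas WT CP2 F was at 49.6 to 70.0 CPM and overlapped KO CP2 F. For that M comparison edgeR's fit of all samples did not call Grin2c. DESeq2 and the fit on M samples alone did, beside 12.7% and 16.6% of all genes. With all libraries and the outside-gene share as covariate, Grin2c was the only receptor gene called with vehicle, lower in KO, beside 1.14% of all genes. The summed level of 8 thalamic markers was 452 to 530 CPM in WT vehicle M and 237 to 291.7 CPM in KO vehicle M, and 332 to 518 CPM in WT vehicle F and 267.3 to 627 CPM in KO vehicle F. Under CP2 it was 164 to 447 CPM in WT F, 227.8 to 396 CPM in KO F, 227.4 to 644 CPM in WT M and 319.4 to 405 CPM in KO M. Among these markers the median log2 difference of KO was -0.46 with vehicle and -0.29 with CP2, with 1 called lower in each. Of all genes 3.8% and 6.07% were called lower in these, and the part of tissue make-up in the Grin2c values was not tested. Grin2d, Grin3a, Grin3b and the delta receptor gene Grid1 were called in no comparison by edgeR's fit of all samples, and Grid1 had group means from 11.7 to 12.5 CPM per kb. Grin3a was called by DESeq2 for the F against M difference of CP2 in KO and, higher, in the fit on M samples alone for KO against WT with CP2.

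Group II metabotropic receptor genes were both lower in KO under CP2. Grm2, found on glutamatergic terminals and with an exon overlap given above, had a log2 difference of -0.30 ± 0.07 (SE; edgeR adjusted p = 0.0058) and Grm3, found on astrocytes as well as neurons, one of -0.38 ± 0.11 (adjusted p = 0.022). For Grm2 the call was kept in all 20 fits with 1 library left out. Grm3 kept it as well, but lost it without the 3 cerebellar libraries together, at -0.32 (adjusted p = 0.058).

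Grm2 under CP2 was at 43.5, 46.4, 48.1, 53.9 and 60.1 CPM in WT F and at 29.3, 40.3, 40.4, 41.4 and 42.8 CPM in KO F, without overlap. In M it was at 45.5, 46.5, 50.6, 55.9 and 57.5 CPM in WT CP2 and at 40.3, 42.2, 44.7, 45.6 and 46.9 CPM in KO CP2. The lowest value belonged to L201. The F comparison, -0.38 ± 0.11 (log2, SE; edgeR adjusted p = 0.049), was lost without L201, L216, L227, L228, L233, L240 or L257 (adjusted p 0.056 to 0.16). With vehicle, Grm2 spanned 34.99 to 52.9 CPM in KO F, 44.0 to 55.3 CPM in WT F, 39.9 to 55.1 CPM in KO M and 47.7 to 57.0 CPM in WT M, and the difference of -0.11 ± 0.09 was not called.

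Grm3 was lower in KO with vehicle too, with a log2 difference of -0.47 ± 0.13 (edgeR adjusted p = 0.026). In F its values were 29.9, 33.1, 34.4, 40.0 and 55.7 CPM in KO vehicle and 39.4, 55.2, 57.3, 59.6 and 65.5 CPM in WT vehicle. In M they were 40.5, 43.6 and 46.1 CPM in KO vehicle and 51.3, 57.6 and 64.5 CPM in WT vehicle. The M groups did not overlap, and in F 2 samples of each group lay within the other's range. Under CP2 the values were 28.8, 41.2, 46.8, 48.8 and 58.3 CPM in KO F against 49.4 to 75.8 CPM in WT F, and 36.4, 48.0, 48.9, 50.6 and 55.6 CPM in KO M against 57.0 to 65.1 CPM in WT M. The vehicle call was lost without L252, L281, L300, L303, L319 or L322 (adjusted p 0.052 to 0.089), and with the outside-gene share as covariate it was -0.27 (adjusted p = 0.37). Of 7 astrocyte markers, 1 was lower and 0 higher in KO with vehicle, and 2 were higher and 0 lower with CP2. Of all genes 6.67% and 11.6% were called in these comparisons.

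**Figure D4:**
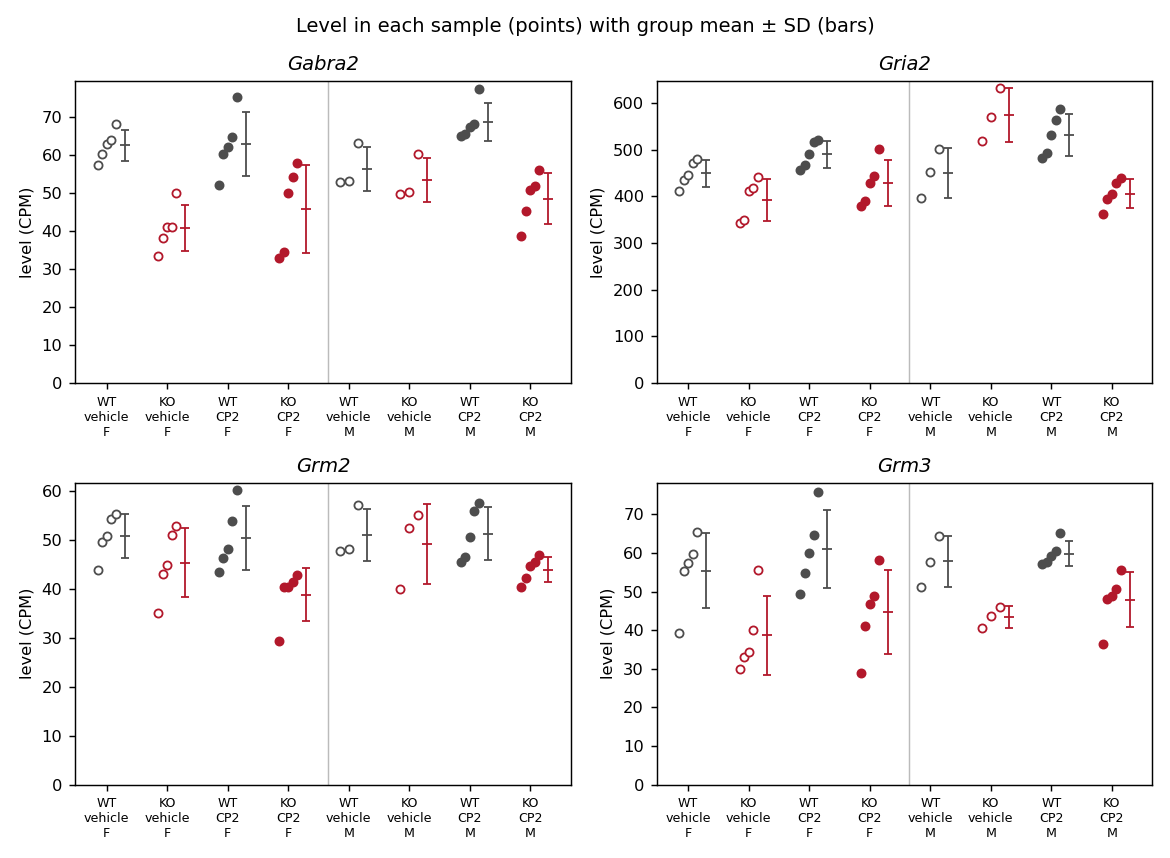
Level (CPM) of Gabra2, Gria2, Grm2 and Grm3 in each sample of the 8 groups (points; KO red, WT grey, CP2 filled, vehicle open), with the group mean and SD as a bar to the right of the points; each vertical axis starts at 0. KO samples of Gria2 in M lie above WT with vehicle and below WT with CP2, and KO samples of Gabra2 lie below WT in vehicle F and CP2 M without overlap.

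Grm5, the group I receptor gene in the list, had a small difference in KO under CP2, -0.19 ± 0.06 on the log2 scale (edgeR adjusted p = 0.040). Its 5 WT CP2 F samples were close together at 209.7, 209.8, 210.1, 211 and 215 CPM, and the KO CP2 F samples were at 160.2, 173, 184, 190.1 and 211 CPM. In M the WT CP2 samples were at 182, 192, 196, 223 and 227.6 CPM and the KO CP2 samples at 155, 175, 184, 190.1 and 200.7 CPM. Ranges overlapped in both letters. The call was lost without any one of 11 libraries (L201, L216, L234, L240, L257, L263, L266, L272, L289, L292 or L299; adjusted p 0.052 to 0.10) and without the 3 cerebellar libraries.

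Group III gave calls for Grm4 and Grm7. Grm4, known from cerebellar granule cells and the thalamus, was lower in KO with vehicle, with a log2 difference of -0.49 ± 0.15 (edgeR adjusted p = 0.047). It stood at 27.0, 30.1 and 31.1 CPM in KO vehicle M against 43.1, 44.0 and 49.8 CPM in WT vehicle M, without overlap, and at 27.5 to 38.0 CPM in KO vehicle F against 33.6 to 49.2 CPM in WT vehicle F. Leaving out L246, L252, L279, L281, L282, L285, L295, L296, L300, L303, L310, L319 or L322 ended this call (adjusted p 0.052 to 0.14), as did the outside-gene share as covariate (-0.53, adjusted p = 0.14). Without the 3 cerebellar libraries it was -0.50 ± 0.11 (edgeR adjusted p = 0.0038), and the difference under CP2, -0.17 ± 0.13 with all libraries, became -0.36 ± 0.10 (adjusted p = 0.014). The thalamic markers given beside Grin2c apply here as well, and their part was not tested.

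Grm7, a presynaptic receptor gene of the same group, was at 41.4, 44.3, 48.4, 48.5 and 51.5 CPM in KO CP2 M and at 52.4, 54.8, 56.8, 58.8 and 62.0 CPM in WT CP2 M. These groups did not overlap, and the difference was -0.28 ± 0.09 (log2, SE; edgeR adjusted p = 0.046). It was lost without L259, L262, L263, L266, L289, L291, L292 or L299 (adjusted p 0.057 to 0.14). Among the 33 receptor genes, 6 were called in KO against WT under CP2 in M (Gabra2, Gria2, Gria3, Grik2, Grm7 and Grin2a), all lower, beside 9.99% of all genes called and 5.24% called lower. A fit on the M samples alone called 12 of 32, 11 of them lower and Grin3a higher, beside 16.6% of all genes. Neither edgeR's fit of all samples nor DESeq2 called Grm8 in any comparison.

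Gabra2, which encodes the alpha-2 subunit found at axon initial segments and in limbic and cortical synapses, was called in 5 comparisons. With vehicle in F it was at 57.4, 60.4, 63.0, 64.1 and 68.3 CPM in WT and at 33.4, 38.3, 41.0, 41.1 and 50.1 CPM in KO, without overlap. With vehicle in M it was at 53.0, 53.2 and 63.2 CPM in WT and at 49.95, 50.3 and 60.3 CPM in KO, where the groups overlapped. The F difference was -0.62 ± 0.13 (log2, SE; edgeR adjusted p = 0.0035), the M difference -0.08 ± 0.16 (not called), and their difference, -0.54 ± 0.20, was not called (adjusted p = 0.40). In F with vehicle it was the only receptor gene called by edgeR, beside 4.96% of all genes called and 2.94% called lower, and DESeq2 called Grm3 as well. The hippocampal CA score was 3.75 to 4.05 in KO vehicle F and 4.15 to 4.76 in WT vehicle F, and with it as covariate the Gabra2 difference in F was -0.41 (adjusted p = 0.045).

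With CP2, Gabra2 was at 52.2, 60.5, 62.3, 64.9 and 75.4 CPM in WT F and at 32.8, 34.5, 50.004, 54.4 and 58.0 CPM in KO F. In M it was at 65.2, 65.7, 67.5, 68.4 and 77.4 CPM in WT and at 38.7, 45.2, 50.9, 52.0 and 56.2 CPM in KO. The M groups were apart, and in F the highest KO values reached the range of WT. The mean KO difference was -0.48 ± 0.09 (log2, SE; edgeR adjusted p = 0.00036), that in M -0.50 ± 0.12 (adjusted p = 0.0076) and that in F -0.46 ± 0.12 (adjusted p = 0.046). The mean kept its call in all 20 fits with 1 library left out and in the 7 other fits made of it, and the M difference was -0.52 (adjusted p = 0.068) with the outside-gene share as covariate. The F call was lost without L201, L216, L227, L240, L257, L272 or L311 (adjusted p 0.051 to 0.15), and the mean difference with vehicle, -0.35 ± 0.10 (adjusted p = 0.034), without L246, L252, L279, L281, L285, L296, L300, L303, L319 or L322 (0.050 to 0.11) and with the outside-gene share as covariate (-0.34, adjusted p = 0.17).

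Gabra2 lies in a cluster of GABA-A receptor genes, next to Gabrg1 in the RefSeq gene order, and Gabra4 lies next to Gabrb1. Gabrg1, Gabra4 and Gabrb1 were called in no comparison by edgeR's fit of all samples or by DESeq2. With CP2 their KO differences were 0.17 ± 0.11, -0.12 ± 0.08 and -0.09 ± 0.06 on the log2 scale, and with vehicle 0.02 ± 0.13, -0.06 ± 0.09 and -0.04 ± 0.07. As a share of the 5 alpha genes per length, Gabra2 was 7.05 ± 0.870% in KO vehicle F against 9.84 ± 0.750% in WT vehicle F (SD, n = 5 each), and 11.2 ± 0.915% (SD, n = 5) in WT CP2 M and 8.26 ± 0.924% (SD, n = 5) in KO CP2 M.

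Gabrd, the subunit of extrasynaptic receptors in dentate granule cells and thalamus, had log2 differences in KO of -0.55 ± 0.20 with vehicle and -0.40 ± 0.17 with CP2, with adjusted p of 0.088 and 0.13 by edgeR. Its samples were spread widely: 18.3 to 43.7 CPM in KO vehicle F, 40.7 to 63.9 CPM in WT vehicle F, 23.1 to 40.3 CPM in KO CP2 M and 44.0 to 57.2 CPM in WT CP2 M. The M groups under CP2 did not overlap, and that comparison had an adjusted p of 0.064 by edgeR's fit of all samples. Gabrd was called lower there by DESeq2, with the hippocampal CA score as covariate and with M samples only. The shares of all genes called in these fits were 12.7%, 9.56% and 16.6%. With CP2 in F it was at 23.7 to 70.4 CPM in KO and 33.6 to 74.4 CPM in WT, with a log2 difference of -0.11 ± 0.24 (edgeR adjusted p = 0.88), and in vehicle M at 27.9 to 41.2 CPM in KO and 39.2 to 50.6 CPM in WT. The groups overlapped in both of these. Of 8 dentate granule markers, 0 were called with vehicle and 1 was lower with CP2, beside 6.67% and 11.6% of all genes called. Gabra3, Gabra5, Gabrb2 and Gabrg3 were called in no comparison by edgeR's fit of all samples, and DESeq2 called Gabra5 for the F against M difference of CP2 in KO.

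Gabra6, a defining gene of cerebellar granule cells, was at 52.2 CPM in L201 and 7.62 CPM in L233 of KO CP2 F, and at 2.96 CPM in L278 of WT vehicle F. In the other 33 libraries it was at most 0.388 CPM, and 18 had no read, which allows up to 3 reads, or 0.0380 to 0.0663 CPM depending on the library. The fit called it higher in KO CP2 F than in WT CP2 F (edgeR adjusted p = 0.014), although the groups overlapped, and also in the mean of F and M (adjusted p = 0.038). In F 2% of all genes were called, 0.715% higher and 1.28% lower, and the other receptor genes called there, both lower, were Gabra2 and Grm2. Without the 3 cerebellar libraries both Gabra6 calls were lost, with adjusted p of 0.41 and 0.080. In F it was also lost without L201 alone (adjusted p = 0.079) or L257 (adjusted p = 0.053), and the mean without L228, L240, L257, L259, L262, L263, L289, L291, L292 or L298 (0.051 to 0.13). A fitted fold change against groups with almost no reads depends on the prior count and is not given.

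The same libraries carried other genes of cerebellar granule and Purkinje cells. Pcp2 was at 37.7, 27.6 and 3.01 CPM in L201, L233 and L278 and at most 0.459 CPM elsewhere, and Fat2 at 111, 8.18 and 11.05 CPM against at most 5.04 CPM. L201 also had the highest Grm4 (69.0 CPM) and Grin2c (121 CPM) of all libraries, where the other 33 reached 53.7 and 71.9 CPM. Of 10 cerebellar markers 4 were called higher in KO under CP2, beside 5.54% of all genes called higher. The summed level of the 10 was 114 to 891 CPM in KO CP2 F against 124 to 145 CPM in WT CP2 F.

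**Figure D5:**
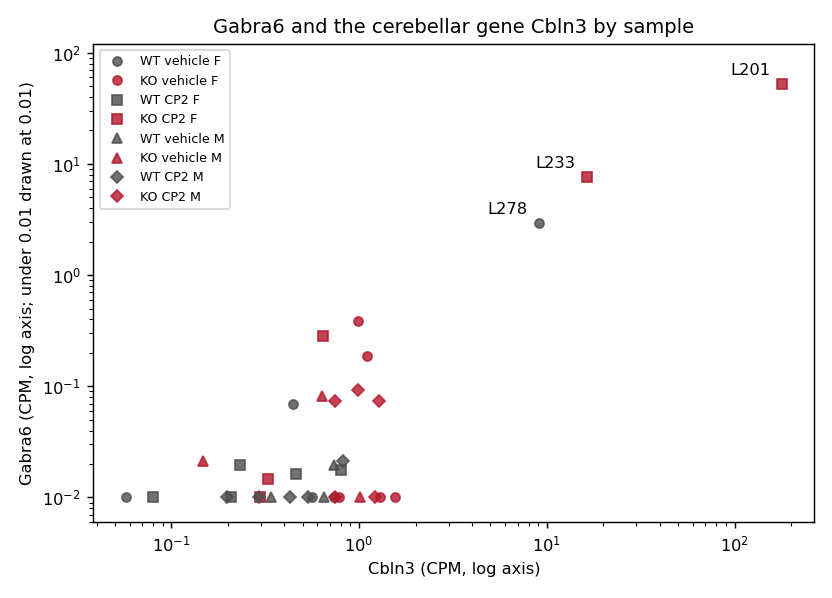
Gabra6 against the cerebellar granule cell gene Cbln3 in each of the 36 libraries (CPM, both axes logarithmic, Gabra6 under 0.01 CPM drawn at 0.01), with symbols for the 8 groups. L201, L233 and L278 stand apart at 52.2, 7.62 and 2.96 CPM of Gabra6, and the other 33 libraries are at or below 0.388 CPM.

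The removal of these 3 libraries, chosen after seeing the data, changed the count of called genes. With vehicle 5 receptor genes were then lower in KO (Gabra2, Grm3, Grin2c, Gria4 and Grm4), beside 6.95% of all genes, and with CP2 9 were lower and none higher (Gabra2, Gria2, Gria3, Gria4, Grik2, Grin2a, Grin2c, Grm2 and Grm4), beside 11.8%. Of these 9, 4 were among the 7 called with all libraries. CP2 in KO then lowered 2 on average, Gria2 and Grik2, beside 6.33%.

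F and M were compared for the genotype effect as well. With vehicle, 24 of 33 receptor genes had a negative KO difference in F (median -0.17) and 12 of 33 in M (median 0.07). Over all genes the medians were 0.03 in F and 0.01 in M. In the test of F against M edgeR called 0 of 33 and 0.102% of all genes, and DESeq2 called 1 (Gria2). At an unadjusted edgeR p under 0.05 were 14 of the 33, beside 2142 of all 25601 genes. With CP2, 20 of 33 were negative in F and 25 of 33 in M. There the test of F against M called 0 of 33 by edgeR and 0 by DESeq2, beside 0.82% of all genes by edgeR. At an unadjusted edgeR p under 0.05 were 3 of the 33, beside 3641 of all 25601 genes. The hippocampal CA score was lower in KO than in WT in vehicle F, as given above, and higher in vehicle M, at 4.35 to 4.52 in KO and 3.83 to 4.07 in WT. Its part in the difference between F and M was not tested.

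Genes that work with these receptors were read from 5 lists of 78 genes in all, of which 77 were tested. Of 21 auxiliary subunits and regulators of AMPA and kainate receptors, 1 was higher and 2 lower in KO with vehicle and 2 were lower with CP2 (list medians -0.06 and -0.07, beside 0.02 and 0.01 over all genes). Of all genes 6.67% were called with vehicle, 3.8% lower, and 11.6% with CP2, 6.07% lower. Abhd6, a negative regulator of AMPA receptor delivery, was lower with both, at log2 differences of -0.28 ± 0.07 with vehicle (edgeR adjusted p = 0.0081) and -0.38 ± 0.06 with CP2 (adjusted p = 2.0e-05). Cacng3, a TARP that traffics AMPA receptors, was at -0.31 ± 0.09 with CP2 (adjusted p = 0.021). With vehicle Nptx1, a pentraxin that clusters AMPA receptors and also one of the hippocampal CA markers, was at 0.36 ± 0.09 (adjusted p = 0.011) and the auxiliary subunit gene Shisa9 at -0.24 ± 0.07 (adjusted p = 0.038). Single libraries ended the vehicle calls of Nptx1 (L285, adjusted p 0.054), Abhd6 (L300 or L322, 0.051 and 0.054) and Shisa9 (L252, L281, L285, L295, L300, L310, L319 or L322, 0.059 to 0.099) and that of Cacng3 under CP2 (L228, 0.050), which was also lost without the 3 cerebellar libraries (-0.26, adjusted p = 0.062).

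Of 20 excitatory scaffold genes, 1 was higher and 2 lower in KO with vehicle, and 1 was higher and 7 lower with CP2 (list medians -0.08 and -0.11). Of all genes 6.67% were called with vehicle, 3.8% lower, and 11.6% with CP2, 6.07% lower. Shank1 was at -0.30 ± 0.08 (edgeR adjusted p = 0.021) and -0.46 ± 0.07 (adjusted p = 2.4e-05), and Homer2, whose protein links group I metabotropic receptors to the scaffold, at -0.26 ± 0.08 (adjusted p = 0.030) and -0.44 ± 0.07 (adjusted p = 1.7e-05). Homer1, named after its values were seen, had a difference under CP2 of -0.96 ± 0.16 (edgeR adjusted p = 0.00014). Its CP2 means were 211 CPM in WT and 110 CPM in KO in M, and 231 and 118 CPM in F, with no overlap in either. With vehicle they were 143 CPM in WT and 136 CPM in KO in M, and 180 and 112 CPM in F, and the mean of F and M was not called. Nlgn1 was at 0.29 ± 0.09 with vehicle (adjusted p = 0.038). Homer3, also a gene of Purkinje cells, was at 0.55 ± 0.18 with CP2 (adjusted p = 0.048), and at 0.21 without the 3 cerebellar libraries (adjusted p = 0.36). Fits without 1 library ended the vehicle calls of Shank1 (L303 or L319, adjusted p 0.064 to 0.081), Nlgn1 (L252, L281, L285, L295, L300, L319 or L322, 0.059 to 0.18) and Homer2 (L252, L278, L281, L282, L285, L296, L300, L303 or L310, 0.051 to 0.087), and that of Homer3 in 15 of 20 fits (0.051 to 0.13), among them those without L201 or L233.

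Among 15 tested genes of GABA-A receptor assembly and transport, KO had 0 higher and 1 lower with vehicle and 1 higher and 2 lower with CP2 (list medians -0.02 in both), beside 6.67% and 11.6% of all genes called. Those under CP2 were Trak2 at 0.35 ± 0.08 (edgeR adjusted p = 0.0029), Shisa7, a GABA-A auxiliary subunit, at -0.36 ± 0.08 (adjusted p = 0.0012) and Trak1 at -0.17 ± 0.05 (adjusted p = 0.014). Kif5a, a kinesin that carries these receptors, was lower in KO with vehicle (-0.25 ± 0.07, adjusted p = 0.016) and rose with CP2 in KO (0.26 ± 0.06, adjusted p = 0.012). CP2 in KO also raised Gabarap (0.19 ± 0.06, adjusted p = 0.045) and, in the auxiliary list, Cnih2 (0.24 ± 0.06, adjusted p = 0.016). The Kif5a call with vehicle was lost without L319 (0.052), Cnih2 without L322 (0.058) and Gabarap without L233, L234, L246, L266, L281, L292, L299, L319 or L322 (0.068 to 0.20) and without the 3 cerebellar libraries (0.18, adjusted p = 0.068).

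Of 16 genes for transmitter synthesis, loading and uptake, 1 was lower in KO with vehicle, 1 was higher with CP2, and 2 rose with CP2 in KO. Of all genes 6.67%, 11.6% and 3.91% were called in these comparisons. Abat, which breaks down GABA, was lower in KO with vehicle (-0.26 ± 0.07, edgeR adjusted p = 0.0099) and rose with CP2 in KO (0.22 ± 0.06, adjusted p = 0.034). Slc17a8, the vesicular glutamate transporter VGLUT3, rose with CP2 in KO by 0.73 ± 0.18 (adjusted p = 0.016) and had a KO difference under CP2 of 0.51 ± 0.16 (adjusted p = 0.035). These calls ended without L285 for Abat with vehicle (0.068), without L216, L233, L234, L266, L281, L291, L310 or L322 for Abat with CP2 (0.053 to 0.12), without L322 for Slc17a8 in KO (0.076) and without L216, L227, L257, L259, L262, L267, L272 or L291 for Slc17a8 against WT (0.052 to 0.12), which with the outside-gene share as covariate was 0.49 (adjusted p = 0.064). With the outside-gene share as covariate, of the 8 named genes called with vehicle only Shank1 was called, and none of the 5 named for CP2 in KO. Of 5 genes of the GABA-B receptor and its auxiliary subunits edgeR called 0 in KO against WT with vehicle or with CP2, with 0 and 2 at an unadjusted p under 0.05, 0 and 0 by DESeq2, and list medians of 0.06 and -0.05. Of all 25601 genes, 5536 and 6363 had an unadjusted p under 0.05 in these.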

How the data were processed

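PolyA RNA of 36 brain samples was sequenced from Illumina TruSeq libraries, per the labels' protocols. The authors deposited 1 table of raw counts per gene. Reads were processed with STAR and HTSeq on GRCm39, per the submitters' processing notes; versions, gene annotation and strand setting are not given in the sources used here. Its 5 summary rows, 12.0% to 19.6% of a library's total, were left out. Symbols were found for 52073 of 56980 gene IDs (97.2% of counts). Groups came from sample titles.

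The 36 samples were fitted together with edgeR 4.0.16 in R 4.3.3 (TMM, filterByExpr, robust quasi-likelihood), with 16 contrasts and Benjamini-Hochberg adjustment over 25601 genes. Standard errors were derived from each log2 fold change and its F statistic (absolute value over root F). CPM uses TMM library sizes. Exon lengths came from GENCODE M21, on the earlier build GRCm38, so levels per kb are approximate. In tests on simulated counts, 53% of 1.4-fold and 82% of 2-fold changes were called for KO against WT with vehicle in F, and 39% and 75% in M (24796 genes each). The changed genes, 100 for each size, were drawn at random from expressed genes and not from the receptor genes. Counts of the 66 within-group pairs of libraries differed beyond sampling noise, with a mean chi-square per gene of 12.6 to 126.

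The members and lists were chosen with earlier results of these data known. All members are described by class, with values by sample for up to 12: those called in most contrasts, then by smallest adjusted p, at least 1 each from AMPA, kainate, NMDA, metabotropic and GABA-A genes. Of each other list, up to 2 higher and 2 lower genes per average contrast are named, by smallest adjusted p. Alternatives were DESeq2 size factors, the DESeq2 1.42.0 Wald test, no filter, samples of 1 letter only, 3 covariates, and leaving out each library. Leaving out the 3 libraries with Cbln3 above 5 CPM was added after seeing the data.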

Additional observations from a re-analysis of the deposited data

Results flagged for a closer look

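Of 78 combinations of a group of 5 samples and 1 of the 12 named receptor genes or Ndufs4, 9 held a sample far from the other 4. For normally spread values chance gives about 1 in 20. That rate does not hold for Gabra6, which had 0 reads in 18 libraries. Library L201 of KO CP2 F was such a sample for Gabra6 (52.24 CPM, others 0 to 7.62 CPM), Grm4 (68.95 CPM, others 27.58 to 36.80 CPM) and Grm2 (29.26 CPM, others 40.33 to 42.82 CPM). L278 of WT vehicle F was one for Gabra6 (2.958 CPM, others at most 0.0687 CPM). Both libraries are among the 3 with cerebellar genes.

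In WT CP2 M, Gabra2 was high in L263 (77.38 CPM, others 65.23 to 68.38 CPM), Grin1 in L289 (419.3 CPM, others 396.5 to 400.8 CPM) and Gabra6 in L289 (0.02108 CPM, others 0). Gria3 was high in L296 of WT vehicle F (199.6 CPM, others 170.1 to 178.3 CPM) and Grm5 in L257 of WT CP2 F (214.5 CPM, others 209.7 to 210.9 CPM). Gabra6 in L289 was 1 read, under the level that 3 reads give, and any read among values of 0 meets this rule.

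For Gria2 the effect of CP2 differed between KO and WT (interaction -0.369 on the log2 scale) and, within KO, between F and M (0.628 on the log2 scale, higher in F). Each was lost in at least 1 fit without 1 library, as given with the AMPA receptor genes.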

How the results depend on the processing

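Counts are receptor genes called of 33, or of 34 without the filter and 32 with M samples only. Percentages are the share of all tested genes called in the same fit. KO against WT with vehicle (3, 6.67%) became 1 without the filter (3.03%), 1 with the outside-gene share as covariate (1.14%) and 5 without the cerebellar libraries (6.95%). The 1 with the outside-gene share was Grin2c, and Gabra2, Grm3 and Grm4 were not called there. In F (1, 4.96%) it became 2 by DESeq2 (7.22%) and 4 with the CA score (7.12%). In M (0, 0.516%) it became 2 by DESeq2 (2.22%) and 3 with M samples only (3.29%). KO against WT with CP2 in F (3, 2%) became 1 with DESeq2 size factors (1.83%), without the filter (0.811%), with the CA score (1.65%) and without the cerebellar libraries (0.72%). It became 0 with F samples only (0.553%), the outside-gene share (1.07%) or the title number (1.14%). In M (6, 9.99%) it became 3 without the filter (4.52%), 12 with M samples only (16.6%) and 1 with the outside-gene share (3.37%). CP2 in KO (0, 3.91%) became 1 by DESeq2 (6.17%) and 2 without the cerebellar libraries (6.33%), and in F (0, 0.0859%) 1 with the CA score (1.12%). In M (3, 5.1%) it became 5 by DESeq2 (7.62%) or with M samples only (10.2%), 0 with the outside-gene share (0%) and 1 with the title number (2.65%). The interaction (1, 0.715%) became 0 with the outside-gene share (0%) or the title number (0.387%). F against M of the vehicle contrast (0, 0.102%) became 1 by DESeq2 (0.496%) and with the CA score (1.18%). That of CP2 in KO (1, 0.691%) became 6 by DESeq2 (2.75%), 0 with the outside-gene share (0.0508%) and 3 with the CA score (1.71%). The cause was not tested.

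Leaving out 1 library gave 0 to 4 for KO against WT with vehicle, 1 to 3 in F and 0 to 0 in M; 5 to 9 with CP2, 0 to 3 in F and 2 to 6 in M; 0 to 1 for CP2 in KO, 0 to 2 in F and 1 to 6 in M; 0 to 0 for CP2 in WT, also in F and in M; 0 to 1 for the interaction; and for F against M 0 to 1 with vehicle, 0 to 0 with CP2 and 0 to 8 for CP2 in KO. The sign was kept in all 366 such fits of single called genes and all 188 under other settings, with 113 and 54 no longer called. No paired analysis was possible because no sample number is shared between groups. Both vehicle M groups hold 3 samples, and on simulated counts 39% of 1.4-fold changes of randomly drawn genes were called at that size. That share was not measured for the receptor genes. Scaling moved no median of all genes by more than 0.0451.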
